A study of Solanum lycopersicum with 12 samples.

Results

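Tomato seedlings kept for 24 h in medium with MBI600 CFCF were compared with seedlings kept for 24 h without it. MBI600 is a strain of the bacterium Bacillus amyloliquefaciens that is applied to crops, and CFCF is the cell-free filtrate of its culture, so the seedlings met what the bacterium had secreted and not the bacterium itself. The comparison used 4 of the 12 arrays of the series, chosen by their labels: MBI600 CFCF at 24 h, replicates 1 and 2, and the negative control at 24 h, replicates 1 and 2. The seedlings were 15 days old, of the species Solanum lycopersicum, and had been moved from agar plates to liquid MS medium before treatment. MBI600 CFCF was given as 1 part in 5 of the volume, and the negative control received no filtrate. The labels give the control as water, whereas the methods give LB with MS medium, so a part of the difference that comes from culture medium cannot be told apart from the part that comes from the bacterium. Each replicate was RNA from whole seedlings, in a pool of 2. The sources used here do not tie the arrays to separate experiments, so the p-values below measure the spread between pools of seedlings. That spread, and each SE, was estimated within the 6 groups of all 12 arrays together, and not from these 4 arrays alone. The remaining arrays held seedlings treated with 1 µM flg22 for 24 h, and seedlings of all 3 treatments at 6 h.

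Plants sense molecules of microbes at the cell surface and answer with a layered response. Ion fluxes, a burst of reactive oxygen and kinase cascades come first, and the hormones salicylic acid, jasmonate and ethylene then set which genes are read. Pathogenesis-related (PR) proteins, among them chitinases, thaumatin-like proteins, PR-1 and secreted proteases, are late products of this response and accumulate outside the cell or in the vacuole. Growth is often held back at the same time, and the genes for loosening the cell wall, for gibberellin and for water channels belong to that side.

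The values are normalised intensities of the green channel on a log2 scale, so a difference of 1 is a doubling. Between 69.8% and 81.7% of the spots were well above background on the 12 arrays, and 0 were saturated. Over all 43603 probes, the MBI600 CFCF arrays correlated with each other at Pearson's r = 0.993 and the control arrays at r = 0.988. Control replicate 2 stood further from the treated arrays (r = 0.977 and 0.975) than control replicate 1 did (r = 0.990 and 0.991). MBI600 CFCF replicate 1 and control replicate 1 lay on the same slide, slide 1, and their difference is given below as the value within slide 1. MBI600 CFCF replicate 2 lay on slide 3 and control replicate 2 on slide 2. The tissue was checked with 14 genes of the small subunit of Rubisco and of the chlorophyll-binding proteins, which mark green tissue, and all 14 were well above background on all 4 arrays. Their mean level was 15.76 and 15.44 with MBI600 CFCF and 15.57 and 15.59 in control seedlings. Of 4 genes for nutrient uptake that mark roots (AMT1-2, FRO1, PT1 and PT2), 3 were well above background on all 4 arrays, with a mean level of 8.99 and 9.26 in the treated seedlings and 9.14 and 9.19 in the control seedlings. In RNA of whole seedlings, fewer cells of a type and less RNA per cell cannot be told apart.

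The probes past the fold change were mostly on the higher side, and most of them carry no gene name. Most probes of the arrays carry none either, since 4884 of the 43603 match a gene. PR1b1, a PR gene, had the largest difference among the named genes. Of the 43603 probes, 29 (0.0665%) differed by at least 2 on the log2 scale, 26 of them (0.0596%) higher and 3 (0.00688%) lower with MBI600 CFCF. For 27 of the 29 the groups did not overlap. Over all probes, the treated arrays were both above the control arrays for 24.2% and both below them for 25.8%, so groups that do not overlap say little by themselves. Among probes whose groups did not overlap, 239 (0.548% of all) were higher and 245 (0.562%) were lower by 1 or more, so both sides were close in number at that size. The 26 higher probes held 10 that match a named gene, of 6 genes, namely PR1b1, PR-P2, P69B, TSI-1, p69c and LOC543517. The 3 lower ones held 1, for gts1. The count past 2 rose when either of 2 arrays was left out and changed little without either of the others. It was 56 without control replicate 1 and 53 without MBI600 CFCF replicate 2, and within slide 1 alone 48 probes passed, 31 of them higher. With the scanner software's own processed signal, 313 probes passed and 74.1% of them were higher, against 89.7% in the deposited values, and with a background offset of 16 the share was 75.6% of 41 probes.

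**Figure D1:**
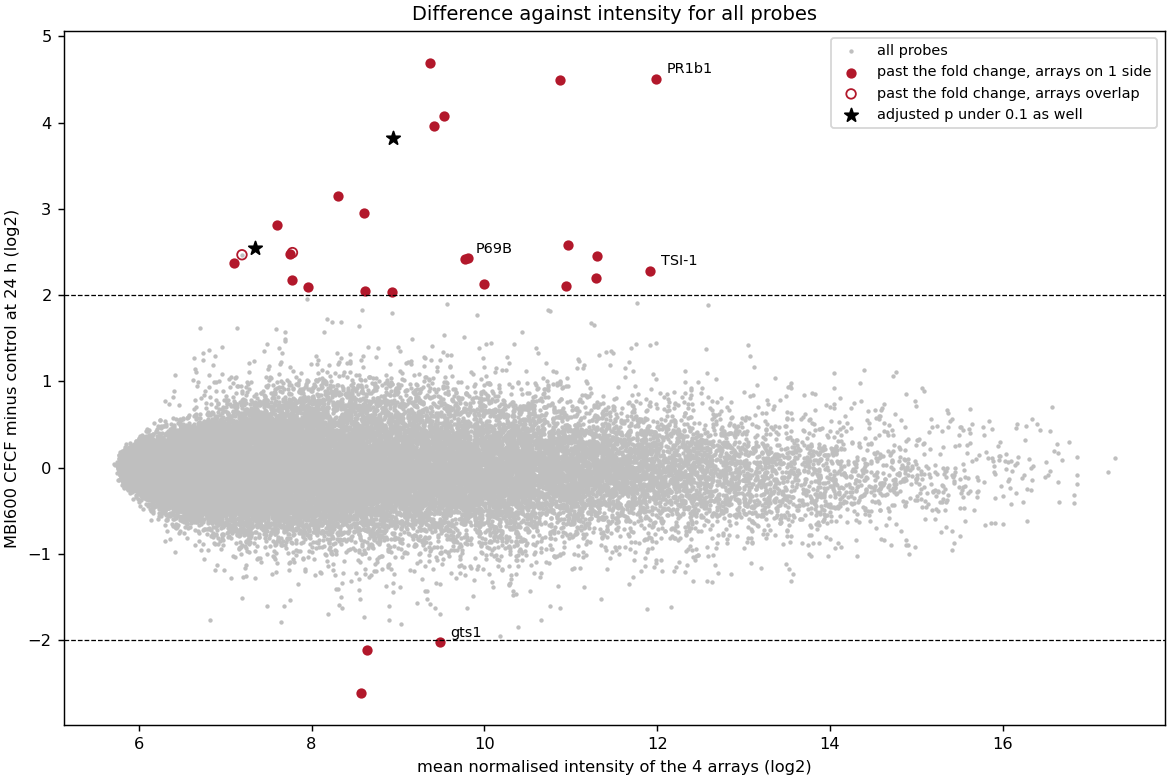
Difference between MBI600 CFCF and control seedlings at 24 h (log2, vertical axis) against the mean normalised intensity of the 4 arrays (log2, horizontal axis), with 1 point per probe, dashed lines at a difference of 2 in either direction, filled red points where the groups did not overlap and open ones where they did. Of the 29 probes outside the lines, 26 lie above and 3 below, and the 2 stars mark the probes that passed the adjusted p as well.

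Only 2 probes (0.00459% of those tested) rose past both thresholds, an adjusted p under 0.1 by limma's empirical Bayes test and a log2 fold change of 2 or more, and 0 fell. At an unadjusted p under 0.05, 1249 probes (2.86%) were higher and 1451 (3.33%) lower. Neither carries a gene name in the tables used here. Probe A_96_P083829, for the sequence AK247942, read 11.26 and 10.44 with MBI600 CFCF, against 7.07 and 6.98 in control seedlings. Its log2 fold change was 3.82 ± 0.31 (SE), or 14.1-fold, with an adjusted p of 0.0554, and it was 4.18 within slide 1. Both treated arrays thus stood well clear of both control arrays. The flg22 arrays at 24 h read 6.30 and 7.12, near the control. At 6 h the probe read 6.52 and 6.50 with MBI600 CFCF and 6.46 and 6.30 in the control, so the arrays of both groups at 6 h lay below those of the control at 24 h.

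Probe A_96_P128967, for the sequence AA824719, read 8.90 and 8.33 in the treated seedlings and 6.21 and 5.93 in the control seedlings, and only 1 of the control arrays was well above background. Its log2 fold change was 2.55 ± 0.22 (SE), or 5.84-fold, with the same adjusted p of 0.0554. At 6 h it stayed dim in both groups, at 6.18 and 6.08 with MBI600 CFCF and 6.02 and 5.96 in the control. The log2 fold changes of both probes stayed at 3.41 to 4.23 and 2.26 to 2.83 without single arrays, but the adjusted p did not hold. Over all alternatives of the processing as well, the log2 fold changes ranged from 3.41 to 4.84 and from 1.87 to 5.81. These 2 calls were lost without either control array and without treated replicate 1, with 0 probes called in each case, and 6 probes were called without treated replicate 2. With the slide as a term in the fit, 0 probes were called. Among the 2232 named genes, with 1 probe each, 0 (0%) were called, while at an unadjusted p under 0.05 there were 84 higher (3.76%) and 98 lower (4.39%). The smallest adjusted p of any probe of a named gene was 0.217. The values of named genes that follow are therefore levels and differences on these arrays, none of which passed the test.

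The largest differences of unnamed probes were at A_96_P072844, for the sequence TA37448_4081, and A_96_P137452, for AI779441. The first read 12.33 and 11.11 with MBI600 CFCF, against 7.75 and 6.30 in control seedlings (log2 fold change 4.69 ± 0.80, SE, adjusted p = 0.683). The second read 13.76 and 12.49 in the treated seedlings and 8.92 and 8.34 in the control seedlings (4.50 ± 0.89, adjusted p = 0.694). The groups did not overlap for either of them. On the lower side, A_96_P160506, for AK328961, read 7.03 and 7.50 with MBI600 CFCF, against 9.59 and 10.17 in the control (-2.61 ± 0.37, adjusted p = 0.555). A_96_P160236, for AW625109, read 7.42 and 7.74, against 10.17 and 9.23 in the control (-2.12 ± 0.56, adjusted p = 0.728).

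PR1b1 encodes a PR-1 protein, a small secreted protein whose gene is a common marker of the salicylic acid response, and it had the largest difference of any named gene. Its brightest probe read 14.81 and 13.66 in seedlings with MBI600 CFCF, against 10.05 and 9.41 in control seedlings. Both treated arrays lay more than 3 units above both control arrays. The log2 fold change was 4.51 ± 0.84 (SE), or 22.7-fold, with an adjusted p of 0.683, and it was 4.76 within slide 1 and 4.18 without control replicate 2. All 6 probes of the gene were higher, by 1.82 to 4.51, and 4 of them passed the fold change. At 6 h the same probe read 11.65 and 11.04 with MBI600 CFCF and 10.43 and 8.15 in the control, a log2 fold change of 2.06. PR genes belong to families of similar sequence, and how far probes of a family bind each other's transcripts was not tested.

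PR-P2, a PR-4 protein, had the smallest p of all named genes. One of its probes, A_96_P265967, read 12.44 and 12.08 in the treated seedlings, against 9.89 and 9.48 in the control seedlings, a log2 fold change of 2.58 ± 0.28 (SE, adjusted p = 0.217). The brightest probe read 12.71 and 12.37, against 10.15 and 10.01 in the control (2.46 ± 0.36, adjusted p = 0.555), and the third lay 1.69 higher. The replicates of this gene were close, so that the gap between the groups was several times the spread within either of them.

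P69B and p69c encode subtilisin-like proteases that tomato secretes into the space between its cells, where related enzymes take part in defence. P69B read 10.68 and 11.29 with MBI600 CFCF, against 8.88 and 8.25 in control seedlings (log2 fold change 2.42 ± 0.90, SE, adjusted p = 0.728). Its other probe differed by 0.47 with overlapping groups, so the probes of this gene disagreed. For p69c, the brightest probe read 9.26 and 8.76, against 7.16 and 6.66 in control seedlings (2.096 ± 0.641, adjusted p = 0.728), and all 3 probes were higher, by 0.573 to 2.096. P69A, another member of the family, had overlapping groups, with 9.56 and 9.63 in the treated seedlings and 9.32 and 9.82 in the control seedlings.

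TSI-1, a protein of the PR-10 family, read 13.33 and 12.78 with MBI600 CFCF, against 11.09 and 10.46 in control seedlings, a log2 fold change of 2.28 ± 0.57 (SE, adjusted p = 0.728). It was already at 13.36 and 13.56 in the treated seedlings at 6 h, against 11.78 and 11.09 in the control at 6 h. Rcr3 and pip1 encode secreted papain-like cysteine proteases, which fungal and oomycete pathogens target with inhibitors. Rcr3 read 8.58 and 9.50, against 7.72 and 6.91 in the control (1.73 ± 0.49, adjusted p = 0.728), and its difference within slide 1 was only 0.87. At 6 h Rcr3 did not show this order, with 7.07 and 6.94 in the treated seedlings and 6.94 and 8.16 in the control seedlings. The brightest probe of pip1 read 8.75 and 9.16, against 7.83 and 7.43 in the control (1.33 ± 0.48), while its 5 probes ranged in their differences from -0.11 to 1.33.

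**Figure D2:**
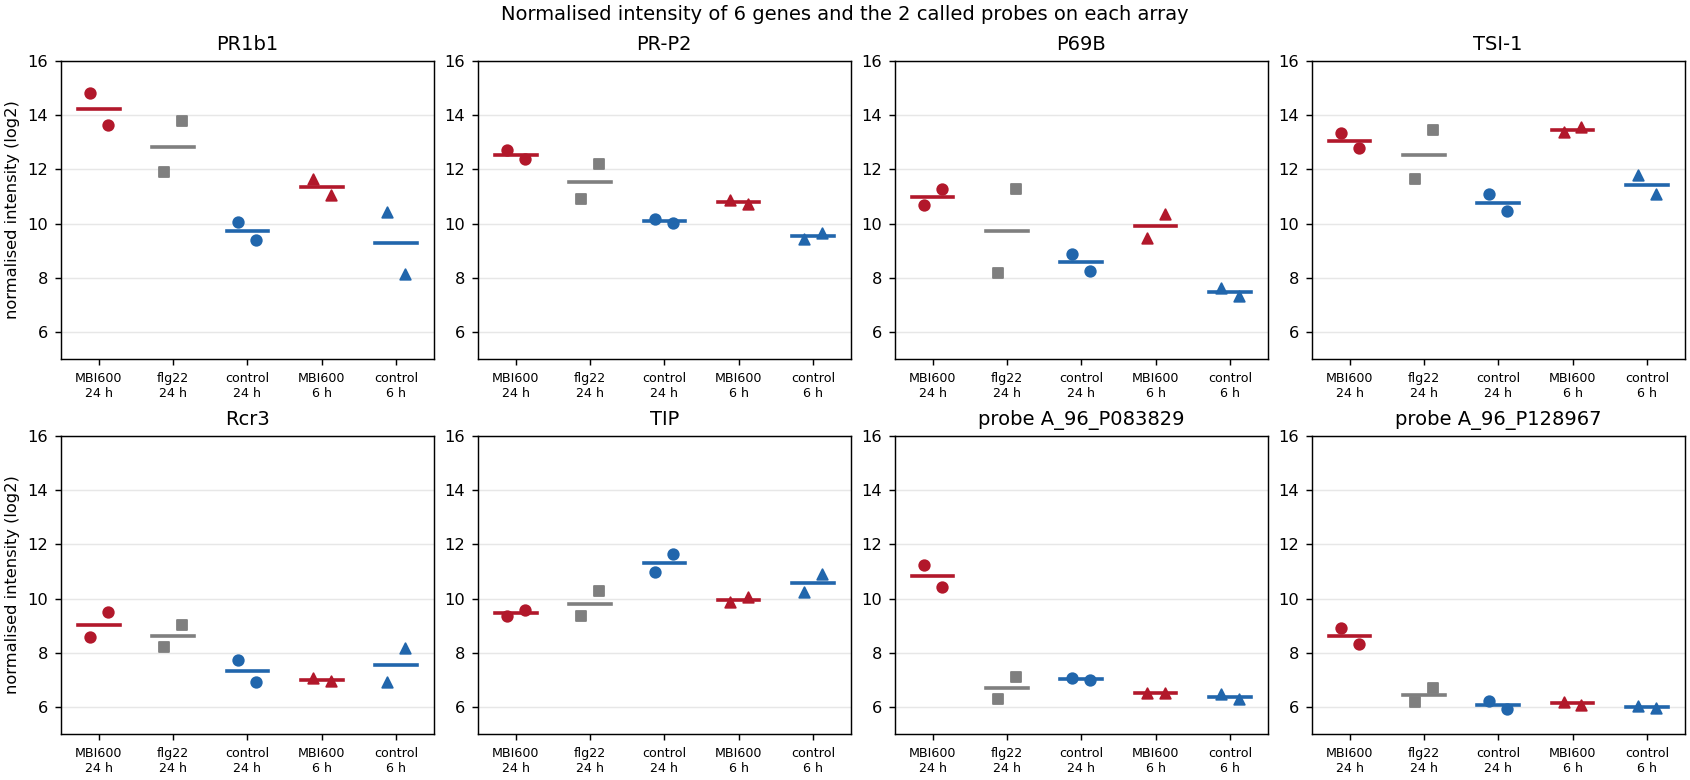
Normalised intensity (log2) of PR1b1, PR-P2, P69B, TSI-1, Rcr3 and TIP by their brightest probe and of the 2 called probes, with 1 point per array and a line at each group's mean, for MBI600 CFCF, flg22 and control at 24 h and for MBI600 CFCF and control at 6 h. PR1b1 reads 14.81 and 13.66 with MBI600 CFCF at 24 h, against 10.05 and 9.41 in the control, and probe A_96_P083829 stands apart in the MBI600 CFCF group at 24 h alone.

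The list of PR proteins held 18 measured genes, 13 of which had a log2 fold change above 0. The groups did not overlap for 16 of them, 12 higher and 4 lower, beside 26.5% higher and 27.0% lower over all named genes (49.1% had a value above 0). The median log2 fold change of the list was 0.45, beside -0.01 over all named genes, and 0 members were called. Of the 18 genes, 6 were higher by 1 or more (1.48% of all named genes) and 1 was lower by as much (0.941%). The higher ones were PR1b1, PR-P2, P69B, p69c, PR-5 and CHI14. PR-5, a thaumatin-like protein, read 6.56 and 7.89 with MBI600 CFCF, against 6.19 and 5.97 in control seedlings, and its difference came mostly from treated replicate 2. CHI14 read 7.14 and 7.87, against 6.55 and 6.29 in the control. Members on the lower side were PR-1a1, with 11.02 and 11.47 in the treated seedlings and 11.91 and 11.81 in the control seedlings, and TPX2, LOC543878 and LOC101250523 at -0.64, -0.95 and -1.17. The list as a whole lay on the higher side within slide 1 as well, with a median of 0.32 and 14 of 18 genes above 0. The list was chosen with results of these data known, and its shares are a description.

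In the lists for ethylene, jasmonate and salicylic acid, ACO1 had the largest difference. ACO1, an enzyme of the last step of ethylene synthesis, read 9.22 and 9.77 with MBI600 CFCF, against 7.70 and 7.63 in control seedlings (log2 fold change 1.83 ± 0.55, SE, adjusted p = 0.728), and its 3 probes were higher by 0.33 to 1.83. It was the 1 gene of 61 in the ethylene list with a difference of at least 1. Over all named genes, 1.48% were higher and 0.941% lower by as much. ER24 followed with 0.96. The transcription factor genes ERF2 and DDTFR10A were at -0.92 and -0.98. The median over the ethylene list was 0.04, with 32 genes above 0 and 29 below. Without overlap of the groups, 15 were higher and 15 lower, beside 26.5% and 27.0% of all named genes. Within slide 1 the median was -0.06, with 40 genes below 0.

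The salicylic acid list held 6 genes and the jasmonate list 24, and 0 genes of either differed by 1 or more, where 1.48% of all named genes were higher and 0.941% lower by as much. Among the study's marker genes, EDS1 and NPR1, which act in the salicylic acid pathway, had log2 fold changes of 0.31 and 0.22. EDS1 read 9.72 and 10.13 in the treated seedlings, against 9.78 and 9.45 in the control seedlings, so the groups overlapped. For loxD, a lipoxygenase of jasmonate synthesis, the value was 0.10, and for MYC2, a transcription factor of the jasmonate response, -0.29. Pti5 (PTI5), a transcription factor first found by its binding to the kinase Pto, had 6.63 and 6.90 with MBI600 CFCF, against 6.30 and 6.22 in the control (0.51 ± 0.42, SE). APX1, an ascorbate peroxidase, differed by 0.08 ± 0.28 (SE). The study gives its ERF1 by a locus number and primers, whereas genes were matched here by name only. The older name ERF1 is carried by ERF-A2 and ERF-H1 in the gene table, and whether either is the study's gene was not checked. Their values were -0.21 and -0.41. PR1b1 was the 1 marker with a difference of 1 or more at 24 h.

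The study also picked genes from these arrays, mostly for being higher, so their direction is not independent evidence. The names TD2, cevi19, P69B, ACO1, lapA and ppo matched 8 genes of the gene table, since lapA and ppo each fit more than 1. The study's other selected genes, among them parA, DrTi and exlb1, were not matched by name, and their values are not given here. Of the 8, 3 were higher by 1 or more (1.48% of all named genes), namely P69B, ACO1 and LAPA1. LAPA1, a leucine aminopeptidase made after wounding, read 8.31 and 9.10 with MBI600 CFCF, against 7.89 and 6.94 in control seedlings (1.29 ± 1.02, SE, adjusted p = 0.759). Its control arrays lay far apart, and the difference within slide 1 was 0.42. The 4 probes of LAPA1 were higher by 0.05 to 1.29. TD2, a threonine deaminase with a role against herbivores, read 7.33 and 7.74, against 6.91 and 6.28 in the control (0.94 ± 1.19), and with the slide as a term in the fit its value was -0.042. The 7 probes of TD2 were higher by 0.06 to 0.94. The polyphenol oxidase LOC101259064 was at 0.83 by its brightest probe, with its 3 probes at -0.24 to 0.83. LOC101259357 was at -0.16 with overlapping groups. LAPA2 was at 0.39. The brightest probe of cevi19 was at -0.40, but 4 of its 5 probes were higher, and the mean of all 5 was -0.006. The ubiquitin gene ubi3, a reference gene for quantitative PCR, read 13.67 and 13.67 in the treated seedlings and 14.19 and 14.11 in the control seedlings, a difference of -0.48 ± 0.27 (SE, adjusted p = 0.728).

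Several genes outside defence were among the 12 with the largest positive differences. MT2, a metallothionein that binds metal ions, read 12.64 and 12.60 with MBI600 CFCF, against 10.62 and 11.79 in control seedlings (1.42 ± 1.02, SE), and all 3 probes gave 1.23 to 1.44. Its control arrays lay far apart, and the value was 0.83 without control replicate 1 and 2.00 without control replicate 2. CHS1, chalcone synthase, the entry enzyme of flavonoid synthesis, read 12.07 and 10.50, against 9.64 and 10.17 in the control (1.39 ± 0.68). CHS1 was at 0.60 without treated replicate 1, at 2.17 without treated replicate 2, and at 0.21 by its other probe. It was the 1 gene of 19 in the phenylpropanoid list past 1, and that count was 5 within slide 1, 5 without treated replicate 2 and 0 without treated replicate 1. It was followed by PAL5, a phenylalanine ammonia-lyase, at 0.73 and DFR, dihydroflavonol reductase, at 0.66. The other probe of DFR was at -0.02, and THT7-1 of the same list was at -0.76. Of the 19 genes, 13 were above 0 and 6 below. Without overlap of the groups, 8 were higher and 3 lower (26.5% and 27.0% of all named genes). Over all named genes and all 4 arrays, 1.48% were higher by 1 or more. ODD read 10.40 and 10.63, against 8.75 and 8.48 in the control (1.90 ± 0.74).

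In the list of 19 heat shock proteins and chaperones, 2 genes were higher by 1 or more (1.48% of all named genes), and the median was 0.13. The heat shock protein gene hsc70.3 read 11.51 and 11.80 with MBI600 CFCF, against 10.51 and 10.48 in control seedlings (1.16 ± 0.31, SE), and HSC80, of the HSP90 family, read 15.29 and 15.34, against 14.58 and 13.84 (1.10 ± 0.50). For each of them the groups did not overlap, but the 14 probes of HSC80 ranged from -0.10 to 1.10. Over the list, 13 genes were above 0 and 6 below, and without overlap of the groups 9 were higher and 2 lower (26.5% and 27.0% of all named genes). BiP/grp78, the chaperone of the endoplasmic reticulum, was at -0.63. NCED1, an enzyme that sets the rate of abscisic acid synthesis, read 8.64 and 8.21, against 7.64 and 7.03 in the control (1.09 ± 0.52). The kinase MAPK6 read 8.33 and 8.58, against 7.78 and 7.10 in the control (1.01 ± 0.47), and it was, with Rcr3 and pip1, among the 3 of 65 immune genes past 1. Over that whole list, 33 genes were above 0 and 32 below, and over all named genes 1.48% were higher by 1 or more.

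**Figure D3:**
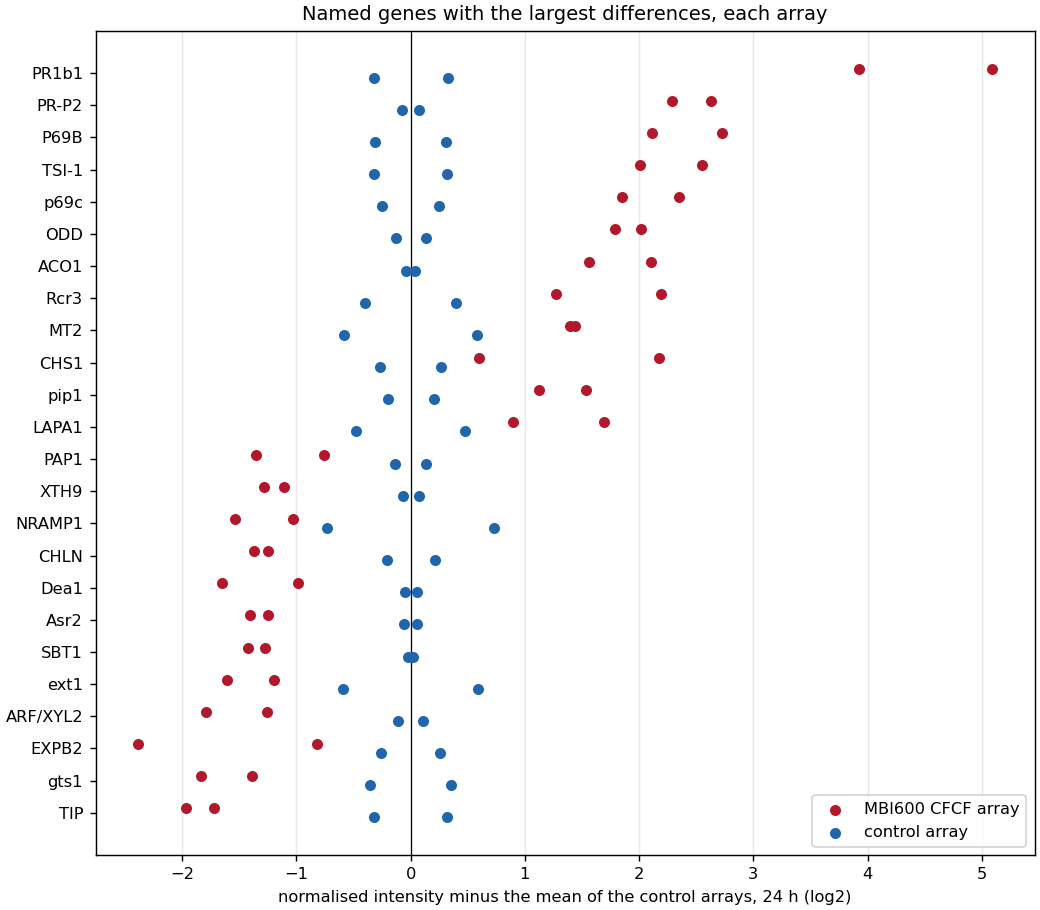
Normalised intensity of each array at 24 h minus the mean of the control arrays (log2, horizontal axis) for the 12 named genes with the largest positive and the 12 with the largest negative differences among genes whose arrays lay on 1 side, by the brightest probe of each gene. Both MBI600 CFCF arrays of PR1b1 lie far to the right, and the control arrays of NRAMP1, ext1 and MT2 are spread widely.

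The 12 named genes with the largest negative differences included genes for the cell wall, for nutrient handling and for a water channel, and 0 of them passed the test. TIP, an aquaporin of the vacuole membrane, had the largest negative difference of the named genes by their brightest probes. It read 9.35 and 9.60 with MBI600 CFCF, against 10.997 and 11.633 in control seedlings, a log2 fold change of -1.84 ± 0.34 (SE, adjusted p = 0.683). The value was -1.65 within slide 1 and -1.52 without control replicate 2. At 6 h TIP read 9.86 and 10.05 in the treated seedlings and 10.25 and 10.91 in the control seedlings, which is the same order with a smaller gap.

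The other aquaporins, which let water through the plasma or vacuole membrane, were looked at after the values were seen. Of the 10 measured, 9 had a negative difference, with a median of -0.57, and PIP2-9 was at 0.07. Over all 2232 named genes, 1135 were negative and the median was -0.01. PIP2-1 read 7.55 and 7.13 with MBI600 CFCF, against 7.76 and 8.83 in control seedlings (-0.95 ± 0.70, SE), and PIP2-6 read 11.58 and 11.46, against 11.81 and 12.85 (-0.81 ± 0.45). In both, control replicate 2 stood far above control replicate 1. It was the highest of the 4 arrays for all the aquaporins but TIP2-2 and PIP2-9. Without control replicate 2 the median of the 10 was -0.29, and without control replicate 1 it was -0.87. Within slide 1, all 10 were negative and the median was -0.22, beside 1147 of the 2232 named genes and a median of -0.01. The direction was the same on that slide, at a smaller size. Slide 1 holds 2 of the same 4 arrays, so its values are not independent of those above. Without control replicate 1, 67 of the 2232 named genes lay lower by at least 1, and without control replicate 2, 21 did.

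**Figure D4:**
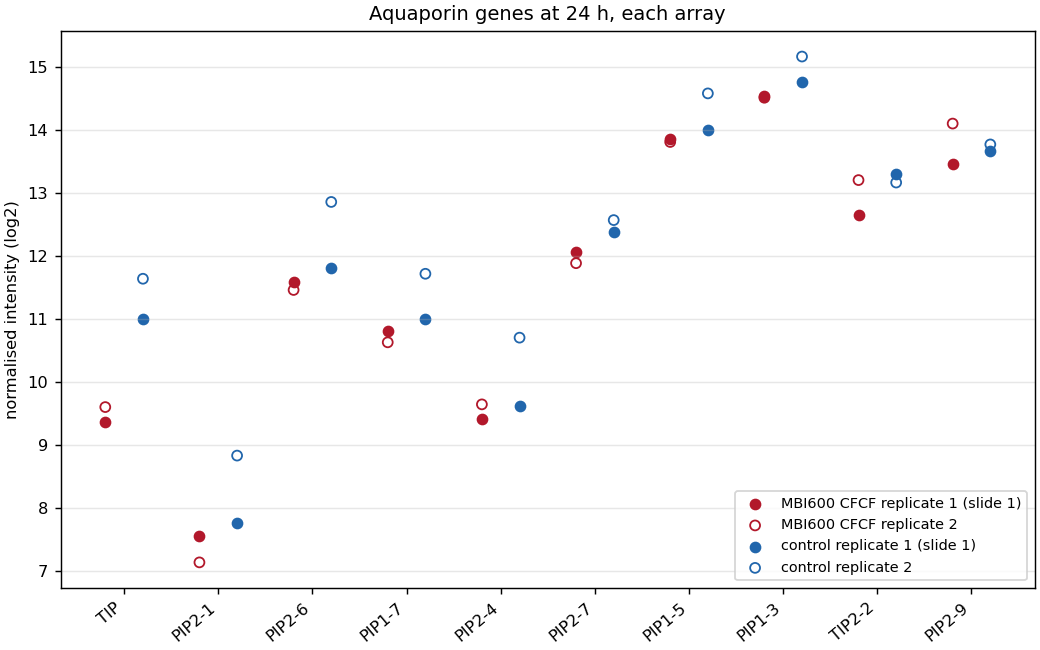
Normalised intensity (log2, vertical axis) of the 10 aquaporin genes at 24 h, with MBI600 CFCF arrays left of control arrays, filled points for replicate 1 of each group, both on slide 1, and open points for replicate 2. For PIP2-1, PIP2-6, PIP1-7 and PIP2-4 the open control point, replicate 2, stands above the other 3.

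The list of cell wall enzymes and expansins held 49 genes, of which 33 had a negative difference. The groups did not overlap for 28 of them, 20 lower and 8 higher, beside 27.0% and 26.5% of all named genes, and the median was -0.19. It was -0.14 within slide 1 and -0.16 without control replicate 2, with 32 and 33 genes below 0. The members furthest down were LOC543916 (-1.43 ± 0.33, SE), ext1 (-1.40 ± 0.68) and XTH9 (-1.20 ± 0.32). XTH9, a xyloglucan endotransglucosylase/hydrolase, which cuts and rejoins wall polymers, read 8.50 and 8.67 with MBI600 CFCF, against 9.71 and 9.85 in control seedlings, with close replicates in both groups. The expansin EXP2, of a family that loosens the wall, read 10.90 and 11.29, against 11.68 and 12.36 in the control (-0.92 ± 0.42). EXPB2, a beta-expansin outside the list, read 10.75 and 9.18, against 11.30 and 11.82 (-1.60 ± 0.73), and its difference within slide 1 was only -0.55. ARF/XYL2, an arabinofuranosidase and xylosidase, read 7.53 and 8.07, against 9.22 and 9.43 in the control (-1.52 ± 0.33).

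Of 26 genes for gibberellin and cytokinin, 20 were negative, 14 of them without overlap of the groups (27.0% of all named genes). The median was -0.14, and without control replicate 2 it was -0.11 with 16 of 26 below 0. GA3ox1, which makes active gibberellin, read 6.61 and 6.66 with MBI600 CFCF, against 7.43 and 7.20 in control seedlings (-0.68 ± 0.17, SE). GA2ox4, of the family that breaks gibberellin down, was on the other side, with 6.84 and 7.94 in the treated seedlings and 6.46 and 6.32 in the control seedlings (1.00 ± 0.36). LOC101248254 had the lowest value of the list, -1.22. The auxin list of 51 genes had a median of -0.01, and its lowest members were EXP2 and the auxin carrier LAX1, at -0.85. The 3 probes of LAX1 ranged from -0.855 to 0.114, and 2 of them were above 0.

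In the list of 35 nutrient genes, 22 were below 0 and 13 above. Without overlap of the groups, 13 were lower and 11 higher, beside 27.0% and 26.5% of all named genes. The gene gts1 read 11.13 and 11.58 with MBI600 CFCF, against 12.61 and 13.32 in control seedlings, a log2 fold change of -1.61 ± 0.60 (SE, adjusted p = 0.728), and its other probe was at -2.03, past the fold change. CHLN, nicotianamine synthase, whose product carries iron in the plant, read 7.86 and 7.74, against 8.90 and 9.32 in the control (-1.31 ± 0.31). NRAMP1, a metal transporter, read 6.45 and 6.96, against 7.26 and 8.72 (-1.28 ± 0.43), and without control replicate 2 its value was -0.55. ST2, a sulfate transporter, lay on the other side, with 10.60 and 10.57 in the treated seedlings and 9.93 and 8.90 in the control seedlings (1.17 ± 0.36).

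The genes Dea1, SBT1 and Asr2 also stood among the 12 with the largest negative differences. Dea1 read 12.56 and 13.22 with MBI600 CFCF, against 14.26 and 14.16 in control seedlings, and all 5 of its probes lay lower, by -1.32 to -1.64. SBT1, a subtilase, read 9.53 and 9.68, against 10.98 and 10.93 in the control (-1.35 ± 0.29, SE). Asr2, of a family that responds to abscisic acid and drought, read 9.34 and 9.50, against 10.81 and 10.69 in the control (-1.33 ± 0.40). PAP1 was at -1.05. These differences were of the same size within slide 1, at -1.70 for Dea1, -1.45 for SBT1 and -1.47 for Asr2.

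Of the remaining lists, 0 had a called member. The photosynthesis list of 29 genes had a median of 0.00, with 14 above 0 and 15 below, and without overlap of the groups 7 were higher and 1 lower (26.5% and 27.0% of all named genes). The highest value was that of ca2, 0.85. The redox list of 37 genes had a median of 0.01, the terpenoid list of 38 had 0.00 and the sugar and starch list of 31 had -0.08. In the terpenoid list TPS32, a terpene synthase, was not well above background on either control array. It read 6.80 and 6.90 with MBI600 CFCF and 5.97 and 5.95 in the control (adjusted p = 0.728). Counting no control value below its array's dimmest value well above background, the mean difference was 1.85-fold. The log2 fold change of TPS32 was 0.83 within slide 1 and ranged up to 4.72 over all alternatives. GGPS2 had the lowest value of that list, -0.70. HT2, a hexose transporter, had the highest of the sugar list, 0.67. The wound list of 11 genes had a median of 0.25, with 8 above 0 and 3 below. The list for abscisic acid and water stress, with 34 genes, had a median of 0.03, with 18 above 0 and 16 below.

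**Figure D5:**
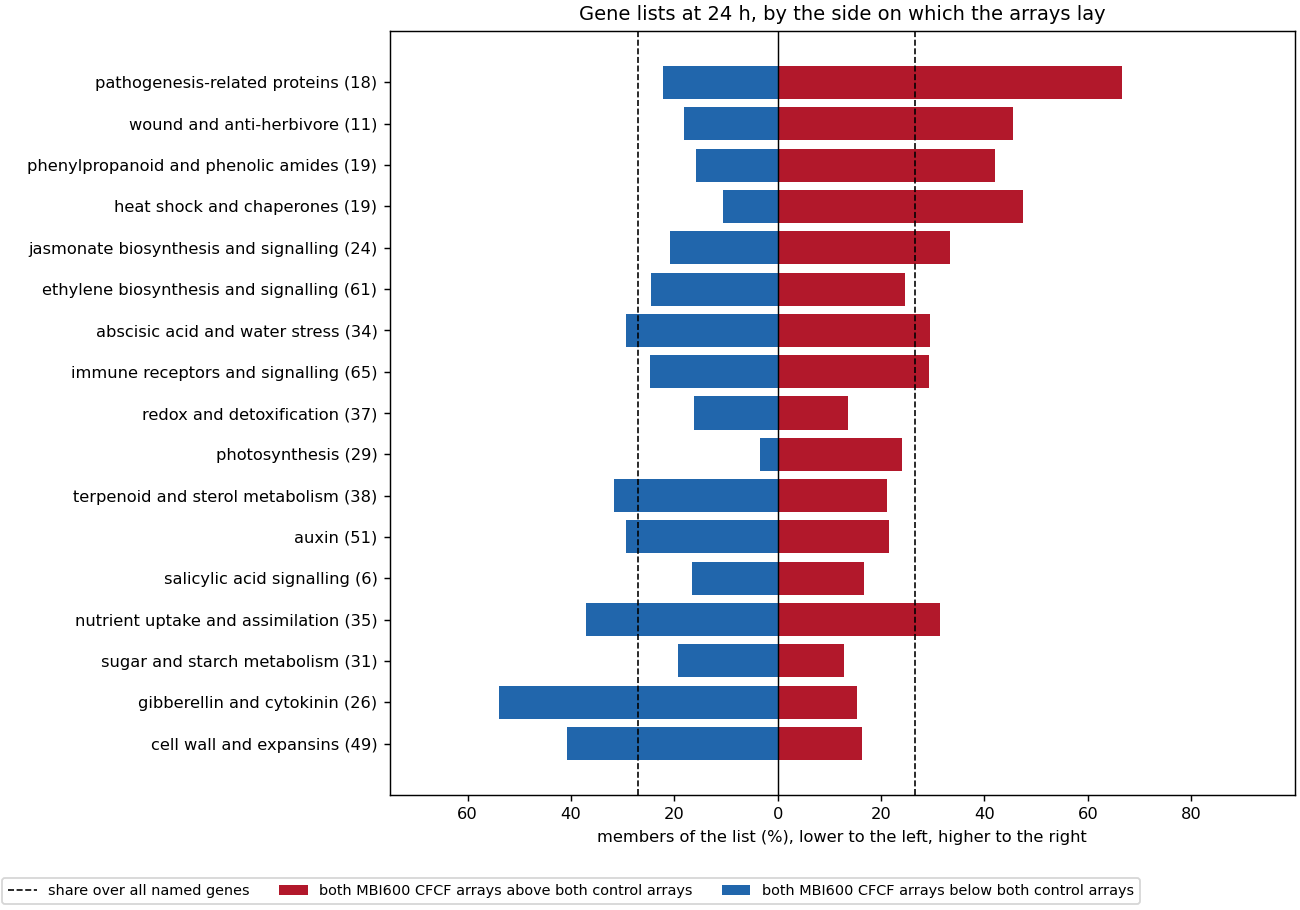
Share of the genes of each list (%, horizontal axis; number of genes in brackets) whose 2 MBI600 CFCF arrays were both higher (right) or both lower (left) than the control arrays at 24 h, with dashed lines at the shares over all 2232 named genes (26.5% and 27.0%). The PR list reaches furthest right, with 12 of 18 genes, and the gibberellin and cytokinin list furthest left, with 14 of 26.

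The flg22 arrays at 24 h were set against the same control arrays, so the values of both treatments are not independent, and only the direct comparison of the treatments was tested. PR1b1 differed from the control by 4.51 with MBI600 CFCF and by 3.12 with flg22, TSI-1 by 2.28 and 1.77, P69B by 2.42 and 1.17 and TIP by -1.84 and -1.50. LAPA1 differed by 1.29 with MBI600 CFCF and by 3.58 with flg22, and Asr2 by -1.33 and 0.49. In the direct comparison, 3 probes (0.00688%) were called, 2 higher and 1 lower with MBI600 CFCF than with flg22, and 0 of them carries a gene name. The direct difference was 1.39 ± 0.84 (SE) for PR1b1 and -1.82 ± 0.40 for Asr2, each with an adjusted p of 0.998. Among the flg22 arrays, replicate 1 read well below replicate 2 for PR1b1 (11.91 and 13.78) and for P69B (8.17 and 11.29).

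The effect at 24 h was set against the effect at 6 h, each against the control of its own time, by an interaction in limma. Of the 43603 probes 0 (0%) were called, and 2657 had an unadjusted p under 0.05. No adjusted p was below 0.62. For PR1b1 the difference between the effects was 2.45 ± 1.18 (SE), for Rcr3 2.27 ± 0.69 and for TIP -1.22 ± 0.49, each with an adjusted p of 0.62. For P69B it was -0.02 ± 1.27, since the gene was as much higher at 6 h (2.44) as at 24 h (2.42). The probe A_96_P083829 gave 3.69 ± 0.43 with an adjusted p of 0.62. The 2 called probes and Rcr3 thus read higher in the treated seedlings at 24 h and close to or below the control at 6 h, a contrast that did not pass the test over all probes.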

How the data were processed

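RNA was labelled with Cy3 and read in the green channel of 2-colour Agilent tomato arrays, scanned with Agilent Feature Extraction 10.7.3.1. The sources used here do not give what the red channel held. The authors deposited log2 values: green median intensities, corrected for background by normexp with an offset of 50, then quantile-normalized between arrays. Computed again from the deposited scanner intensity values, they differed by at most 5e-09. No depth applies to arrays, and the number of arrays limits the precision.

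Control spots were left out, and 43803 spots were averaged to 43603 probes. In limma 3.58.1 under R 4.3.3, 1 model with a mean for each of the 6 groups took in all 12 arrays, followed by the empirical Bayes test, with p adjusted by Benjamini-Hochberg over all probes. Calls needed both an adjusted p under 0.1 and a log2 fold change of 2 or more in size. The study's methods name both thresholds, joined by "or". Spots marked as outliers were kept. Names came from the RefSeq gene table of assembly SLM_r2.1, which matched 4884 probes to 2232 of 41476 genes; a gene is given by its brightest probe over all arrays.

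Genes were named by a rule that took every called probe and those of the study's own genes that matched by name. It also took the 12 largest differences per direction among genes with a symbol of their own whose arrays lay on 1 side. The rule further took up to 4 genes from each of 20 lists, and 2 unnamed probes per direction. PR-5, CHI14, PR-1a1, P69A, LOC543878, LOC543517, the tissue markers and the aquaporins other than TIP fall outside it and were named after their values were seen. The comparison, its members and the lists were chosen with earlier results of these data known. The lists were filled by matching gene symbols and synonyms, so a heading need not fit every member. The auxin list holds expansins, the salicylic acid list holds TGAS118, and the terpenoid list holds gad2 and GABA-TP2. Steps were tested on simulated data. The sources used here do not say whether the replicate numbers pair the samples, and the main fit did not pair them. Between groups of the series, the differences of replicate 1 from replicate 2 correlated at -0.512 to 0.665.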

Additional observations from a re-analysis of the deposited data

Results flagged for a closer look

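The direct comparison of both treatments at 24 h (limma's empirical Bayes test, adjusted over all probes) singled out 3 probes whose difference from the control was not the same with MBI600 CFCF and with flg22. Probe A_96_P083829 read 11.26 and 10.44 with MBI600 CFCF, against 6.30 and 7.12 with flg22, a difference of 4.14 ± 0.31 (log2, SE, adjusted p = 0.0324). Probe A_96_P128967 read 8.90 and 8.33 with MBI600 CFCF, against 6.20 and 6.70 with flg22, a difference of 2.16 ± 0.22 (adjusted p = 0.0961). Probe A_96_P119457, for the sequence TA54915_4081, went the other way, with 6.57 and 7.23 in MBI600 CFCF seedlings and 9.16 and 9.01 in flg22 seedlings, a difference of -2.19 ± 0.20 (adjusted p = 0.0558), and it read 7.23 and 7.32 in the control. For all 3 the arrays of both treatments did not overlap. With the slide as a term in the fit, 0 probes were called.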

How the results depend on the processing

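With 2 arrays per group, the adjusted p-values moved with single arrays and with the variance model. The log2 fold changes of the 2 called probes stayed at 3.41 to 4.23 (A_96_P083829) and 2.26 to 2.83 (A_96_P128967) without single arrays. Over all alternatives they ranged from 3.41 to 4.84 and from 1.87 to 5.81. With the processed scanner signal 2 probes were called, and 1 of them was among these. For MBI600 CFCF against control, the 2 called probes became 1 with scaling to the 75th percentile instead of quantile normalization, 8 with a trended and robust empirical Bayes step, and 0 with the log2 ratio of green to red, with the slide as a term, with the replicate block, in a fit of only the groups compared, or at an adjusted p under 0.05 and a log2 fold change of 1 or more. Leaving out single arrays gave 0 to 6. The replicate numbers of these 2 groups had deviations that correlated at -0.15, and in a fit of only the 2 groups, added after the data were seen, the replicate block called 0 probes as numbered and 0 crossed. The count past the fold change, 29, was 313 with the processed scanner signal, 488 at a log2 fold change of 1 and 48 within slide 1 (added after the data were seen), and 26 to 56 without single arrays. Against flg22, the 3 called probes became 1 with the processed scanner signal, without background subtraction, with the 75th percentile or with the replicate block, 0 with the ratio, the slide as a term or only the groups compared, and 0 to 7 without single arrays. The interaction had 2 calls with the trended step and 0 to 4 without single arrays. Scaling to the 75th percentile moved the median of all probes to 0.46, and the processed signal to 0.14. The causes were not tested. Some named genes changed sign. APX1 was at -0.15 with the ratio, -0.21 with the slide as a term, -0.048 with the slide as a random block and -0.02 as the mean of its probes. LOC101259357 was at 0.15, 0.32 and 0.05 in the first 3 of these settings, 0.33 within slide 1, and -0.48 to 0.16 without single arrays. With the slide as a term, loxD was at -0.06, TD2 at -0.042 and SBPASE at 0.016. With the 75th percentile ERF-H1 was at 0.076 and LOC543600 at 0.23. EDS1 was at -0.06 within slide 1, and as means of their probes CAB11 was at -0.30 and FRK2 at -0.16. PR1b1 ranged from 3.24 to 5.24 and TIP from -2.16 to -1.52 over all alternatives.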

Other observations

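For 2 of the 29 probes past the fold change the difference came from a single array. LOC543517, by probe A_96_P079429, read 11.52 on MBI600 CFCF replicate 1 and 6.53 on replicate 2, against 6.60 and 6.47 in the control seedlings, and between 6.35 and 6.74 on the other 11 arrays of the series. Probe A_96_P073884 read 10.91 on MBI600 CFCF replicate 1 and 5.95 on replicate 2, against 5.87 and 6.05 in the control, and at most 7.05 on the other 11 arrays. Each has 1 spot per array. On that array the spots were bright in both colours, with a median intensity of 1725 in green and 1931 in red for the first and 1107 in green and 1347 in red for the second. The scanner software marked the first as an outlier and did not mark the second. Both were singled out after their values were seen.

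The red channel was not used in the comparisons. Normalised like the green one, it had 0 probes with a difference of at least 2 between MBI600 CFCF and control at 24 h, where green had 29. Between 52.0% and 78.8% of spots were well above background in red, with 75.2% and 52.0% on the MBI600 CFCF arrays and 77.6% and 78.8% on the control arrays at 24 h.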
